A study of Mus musculus with 9 samples.

Results

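The genes described here are 10 genes of lipoprotein assembly and transport in mouse liver, namely the apolipoproteins Apoa1, Apoa2, Apoa4, Apoa5, Apob, Apoc2, Apoc3, Apoe and Apom and the microsomal triglyceride transfer protein Mttp. They were chosen by symbol, matched to the Entrez Gene identifier of each row, and all 10 were found among 17846 genes listed and passed the filter on low counts among 13619 genes tested. Liver RNA from 9 male wild-type C57/BL mice was sequenced, with 1 library per mouse. The 3 Control mice ate a normal diet, the 3 NASH mice ate the Ath diet, an atherogenic diet with added cholesterol and cholate, for 20 weeks, and the 3 NASH+Exercise mice ate it as well and ran on a treadmill for the last 8 weeks, after 12 weeks of diet alone. The other groups were sedentary, and all mice were fasted overnight before the liver was taken. NASH stands for non-alcoholic steatohepatitis, and here the name marks the diet group and not a grading of each liver. Mice carry the numbers of the labels, which are 3, 4 and 29 in Control, 5, 19 and 20 in NASH and 8, 18 and 22 in NASH+Exercise. Values per mouse are given in these orders.

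Apolipoproteins are the protein coats of the particles that carry fat and cholesterol in plasma. In the hepatocyte, Mttp loads triglyceride onto the growing Apob chain in the endoplasmic reticulum, and the result is secreted as a very low density lipoprotein. Apoa1 and Apoa2 are the main proteins of high density lipoproteins (HDL), and Apom, a lipocalin that binds sphingosine 1-phosphate, rides on the same particles. Apoc2 activates lipoprotein lipase and Apoc3 opposes it and slows remnant uptake, while Apoa5 favours triglyceride clearance. Apoe is the ligand by which remnants are taken up by receptors, and it is also made by macrophages. Apoa4 is made in large amounts by the intestine and in mice also by the liver.

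The libraries held 20086004 to 22495449 estimated counts each, so the members, at no fewer than 2569 estimated counts in any mouse, are limited in precision by the spread between mice and not by counting. Normalised counts, written CPM, are counts scaled to a common library size with factors from the trimmed mean of M values (TMM). TPM, which divides by transcript length, is used where genes are compared with each other. Control libraries had TMM factors of 0.800 to 0.976, NASH libraries 1.09 to 1.23 and NASH+Exercise libraries 0.912 to 1.08, so the scaling itself differed between groups, and its effect is given beside the results it changes. In Control 4 and NASH+Exercise 22, genes with long transcripts were low against genes with short ones. The median centred log2 level of well expressed genes with transcripts over 8000 nt minus that of genes with transcripts of at most 2000 nt was -0.47 in Control 4 and -0.23 in NASH+Exercise 22, against -0.037 to 0.21 in the other 7 mice. The tissue label was borne out by hepatocyte markers such as Alb, at 39314 to 73855 TPM. Of the 12 hepatocyte markers tested, 6 were lower and 0 higher in NASH than in Control. Their summed level, of which Alb is a large part, was 98326 to 109695 TPM for Control, 85139 to 101483 TPM for NASH and 69489 to 93064 TPM for NASH+Exercise. Between NASH+Exercise and NASH 0 of the 12 passed, with a median log2 fold change of 0.26. Of 15 macrophage and Kupffer cell markers, 14 were higher in NASH than in Control, with summed levels of 191 to 340, 1778 to 2347 and 1153 to 1476 TPM. In the same comparison higher levels were also seen for 6 of 8 neutrophil, 8 of 8 T and NK cell, 5 of 9 stellate cell, 3 of 8 sinusoidal endothelial, 4 of 6 cholangiocyte and 1 of 6 erythroid markers and for 0 of 5 B cell markers, and none of these was lower. Among all genes tested 14.4% were lower and 21.2% higher in NASH than in Control. Of 7 enterocyte markers, 3 were listed and only Fabp2, which liver also expresses, passed the filter, and it did not differ. In whole liver, fewer cells of a type and less RNA per cell cannot be told apart.

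By RefSeq on GRCm38.p6, the build of the deposited values, 4 members lie in 1 cluster on chromosome 9, where Apoa1, Apoc3, Apoa4 and Apoa5 span 43292 bases (chr9:46228630-46271921). Apoc2 and Apoe lie with Apoc4 and Apoc1 in a cluster of 29732 bases on chromosome 7 (chr7:19671579-19701310). The other members are single genes, Apoa2 on chromosome 1 (chr1:171221564-171226379), Mttp on chromosome 3 (chr3:138089855-138143418), Apob on chromosome 12 (chr12:7977629-8016839) and Apom on chromosome 17 (chr17:35128997-35131801). The span of Apoc2 overlaps the read-through gene Gm44805, which joins Apoc4 to Apoc2, and that of Apoa2 overlaps Tomm40l, so reads of these pairs could be split between the genes.

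Promoter windows, 250 bases before to 50 after an annotated start in RefSeq on GRCm38.p6, were at hand for 9 of the 10 members. The windows of 4 genes that were lower in NASH than in Control (Mttp, Apoa2, Apoa5 and Apom) are printed because each passed the test of that comparison. Those of Apob and Apoc2 are printed because these genes did not pass the same test. Capitals mark every match, on either strand, to the 7 patterns searched, namely the nuclear receptor hexamer AGGTCA, its variant form GGGTCA, the HNF4-type pattern CAAAGNNCA, the E-box CACGTG, the TATA box TATAAA, the CCAAT box and the direct repeat DR1, which is the hexamer repeated with 1 base between and so overlaps it. Apoa2, Apoa5 and Apoe have more than 1 annotated start, and of Apoa2 and Apoa5 the first window listed is shown.
Mttp, chr3:138143369-138143668, minus strand: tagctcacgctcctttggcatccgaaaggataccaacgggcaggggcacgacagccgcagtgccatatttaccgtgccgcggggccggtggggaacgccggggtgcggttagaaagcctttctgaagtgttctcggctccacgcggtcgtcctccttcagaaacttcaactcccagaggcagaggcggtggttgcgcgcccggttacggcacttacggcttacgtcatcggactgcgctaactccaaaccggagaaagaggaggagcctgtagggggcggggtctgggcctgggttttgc
Apoa2, chr1:171224804-171225103, plus strand: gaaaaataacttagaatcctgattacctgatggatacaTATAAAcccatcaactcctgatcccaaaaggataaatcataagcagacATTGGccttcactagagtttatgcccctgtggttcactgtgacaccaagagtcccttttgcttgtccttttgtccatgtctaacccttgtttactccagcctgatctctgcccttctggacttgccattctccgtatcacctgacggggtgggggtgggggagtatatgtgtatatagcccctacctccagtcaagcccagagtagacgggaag
Apoa5, chr9:46268358-46268657, plus strand: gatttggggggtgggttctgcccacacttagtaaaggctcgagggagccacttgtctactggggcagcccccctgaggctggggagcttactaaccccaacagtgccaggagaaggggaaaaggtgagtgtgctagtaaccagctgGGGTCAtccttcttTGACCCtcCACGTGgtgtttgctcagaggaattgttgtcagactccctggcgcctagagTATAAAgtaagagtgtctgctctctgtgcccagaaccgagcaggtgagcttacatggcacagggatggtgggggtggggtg
Apom, chr17:35131752-35132051, minus strand: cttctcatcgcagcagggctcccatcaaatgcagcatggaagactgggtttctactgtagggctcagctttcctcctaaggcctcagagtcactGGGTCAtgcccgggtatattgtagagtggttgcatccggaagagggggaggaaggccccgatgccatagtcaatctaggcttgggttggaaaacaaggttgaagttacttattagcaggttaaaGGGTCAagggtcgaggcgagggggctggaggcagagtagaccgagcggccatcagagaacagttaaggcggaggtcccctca
Apob, chr12:7977427-7977726, plus strand: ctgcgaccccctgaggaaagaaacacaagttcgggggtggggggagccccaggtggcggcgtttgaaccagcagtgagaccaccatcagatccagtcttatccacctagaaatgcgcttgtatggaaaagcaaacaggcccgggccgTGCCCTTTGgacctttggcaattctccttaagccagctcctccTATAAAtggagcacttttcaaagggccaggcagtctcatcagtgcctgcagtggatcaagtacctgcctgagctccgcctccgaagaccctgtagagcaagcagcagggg
Apoc2, chr7:19677892-19678191, minus strand: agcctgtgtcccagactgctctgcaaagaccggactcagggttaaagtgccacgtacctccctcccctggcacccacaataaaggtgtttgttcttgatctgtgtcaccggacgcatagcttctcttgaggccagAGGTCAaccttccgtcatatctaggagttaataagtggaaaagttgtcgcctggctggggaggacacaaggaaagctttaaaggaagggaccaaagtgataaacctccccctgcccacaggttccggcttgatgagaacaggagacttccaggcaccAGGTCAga

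The Mttp window had no match to any of the 7 patterns, so none could be present in all 4 printed windows of genes that fell. For Apoc3, the fifth such gene, no window was at hand. With the start counted as 0 and each match placed by its first base, Apom had GGGTCA at -156 and -32, and Apoa5 had it at -104 and, on the other strand, at -90, followed by an E-box at -82 and TATAAA at -31. Apoa2 had TATAAA at -212 and the complement of CCAAT at -164. Its second window, which is not printed, had AGGTCA on the other strand at -238 and the complement of CCAAT at -128. Apob had a CAAAGNNCA match on the other strand at -103 and TATAAA at -60. Apoc2 had AGGTCA at -115 and 42. Over 32851 windows of the same length, AGGTCA was found in 16.3%, GGGTCA in 13.7%, CAAAGNNCA in 6.36%, CACGTG in 7.15%, TATAAA in 13.6%, CCAAT in 37.4% and DR1 in 0.0396%. A match describes letters and not binding.

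Per transcript length, the members covered a wide range of levels in every mouse. Apoe was the highest, at 28542, 31361 and 27169 TPM in Control. Apoa1, at 18542, 23833 and 20181 TPM, and Apoa2, at 24589, 25056 and 24395 TPM, followed, and Apoa2 was above Apoa1 in every Control mouse. In NASH the order of this pair was turned in every mouse, with 26547, 21946 and 25773 TPM for Apoa1 and 16628, 16408 and 17784 TPM for Apoa2, and the same was seen in NASH+Exercise, with 23219, 21689 and 26339 and 17185, 17059 and 16440 TPM. Apoc3 came next at 3949 to 5438 TPM over the 9 mice. Apoa5, at 881 to 1807 TPM, was above Apoa4 in 8 of 9 mice and below it in NASH 19 (1084 against 1314 TPM). The ranges of Apoa4 (395 to 1314 TPM), Apoc2 (374 to 827 TPM), Apob (189 to 609 TPM) and Apom (299 to 406 TPM) overlapped over the 9 mice. Apoa4 was above Apom in every mouse, and the order of the other pairs among these genes differed between mice. Mttp was the lowest of the 10, at 77.6 to 168 TPM. Together the 10 genes held 8.31 ± 0.488% of all TPM in Control mice, 8.22 ± 0.237% for NASH and 8.10 ± 0.331% for NASH+Exercise (SD, n = 3), and the 3 groups overlapped.

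**Figure D1:**
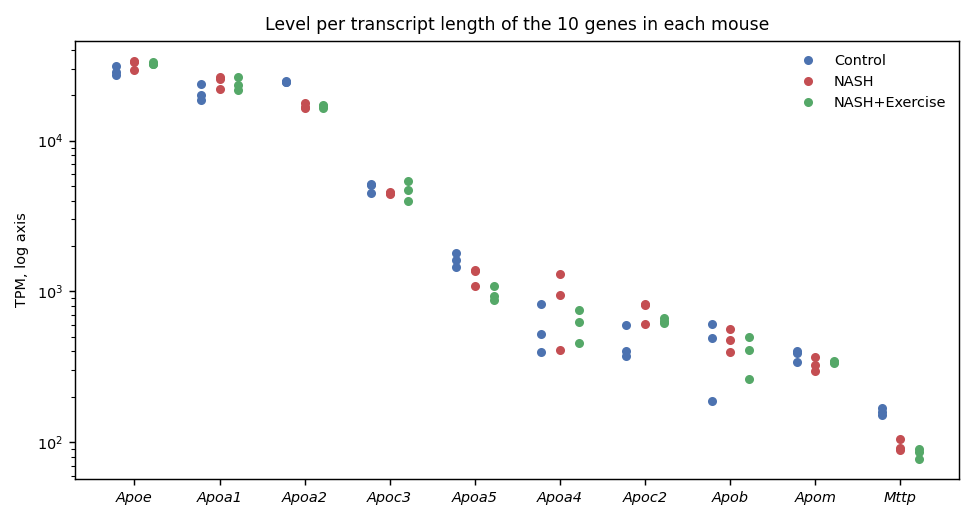
Level of the 10 genes in each mouse in TPM on a log axis, ordered by the mean over 9 mice, with colours for Control, NASH and NASH+Exercise. Apoe, Apoa1 and Apoa2 are the 3 highest in all 9 mice, and Apoa2 and Mttp are lower in all NASH and NASH+Exercise mice than in any Control mouse.

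The first comparison, NASH against Control, asks how the members differed after 20 weeks of the Ath diet. Of the 10 members, 5 were lower in NASH (Mttp, Apoa2, Apoa5, Apom and Apoc3) and 0 were higher at an adjusted p under 0.05 (edgeR quasi-likelihood test, Benjamini-Hochberg over 13619 genes), and the 5 others (Apoa1, Apoa4, Apob, Apoc2 and Apoe) did not pass. Among all genes tested, 35.6% passed this limit, 14.4% lower and 21.2% higher. With the further limit of an absolute log2 fold change above 1, which the study used to define differentially expressed genes (DEGs), Mttp alone was called among the members, where 18.3% of all genes were called. The log2 fold changes ran from -1.18 to 0.26 with a median of -0.45, against 0.013 over all genes, and 8 of 10 estimates were below 0. The median of the 12 hepatocyte markers tested was -0.68, so a median below that of all genes was not particular to the members. The median of the members was -0.082 under library size and 0.0098 with limma on TPM, where the medians of all genes were 0.36 and 0.34. NASH and Control mice did not overlap in the 5 members that fell, and the same was true of 49.6% of all genes.

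In the assembly step, Mttp fell and Apob did not pass the test. Mttp was at 404, 500 and 398 CPM in Control and 188, 165 and 222 CPM in NASH. Every NASH mouse was below every Control mouse, and the mean was 2.27-fold lower (log2 fold change -1.18 ± 0.17 SE, adjusted p = 3.67e-04 by edgeR). The call at an adjusted p under 0.05 held in all 17 alternative fits, with adjusted p from 6.84e-10 to 0.00264 and log2 fold changes of -1.31 to -0.74. Apob, the structural protein of the secreted particle, was at 4647, 2091 and 5107 CPM in Control and 2895, 3688 and 3539 CPM in NASH, with a log2 fold change of -0.23 ± 0.30 (adjusted p = 0.602 by edgeR). The Control mice spread over more than the whole range of the NASH mice, and the low one was Control 4, in which long transcripts were low in general. The longest Apob transcript has 13934 nt and is in the longest class. Without Control 4 the log2 fold change of Apob was -0.55 (adjusted p = 0.0626 by edgeR), and with NASH+Exercise 22 also left out, which changes only the shared estimate of spread and scaling, the value was -0.55 with an adjusted p of 0.0273, which passes. Apob did not pass in the other 16 of 17 alternative fits. The log2 fold change was -0.098 without Control 3 and -0.028 without Control 29 (adjusted p = 0.856 and 0.954 by edgeR). It was -0.36 with the length trend of each library removed (adjusted p = 0.223 by edgeR) and 0.30 with limma on TPM (adjusted p = 0.54). The size of the Apob difference thus varied with the Control mice kept and the length trend, and its sign with the scaling.

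Of the HDL proteins, Apoa2 and Apom fell and Apoa1 did not pass. Apoa2 was at 8086, 9652 and 7123 CPM in Control and 4194, 3747 and 4623 CPM in NASH, a 1.98-fold difference with no overlap (log2 fold change -0.98 ± 0.18, adjusted p = 0.00163 by edgeR). It lies just short of the fold limit for a DEG, and the limit was passed without Control 3, without Control 29 and without NASH 20 (log2 fold changes -1.01, -1.12 and -1.06). With all mice kept, Apoa2 also passed the limit with relative log expression factors and without the filter (-1.02 in both). It passed as well with DESeq2, the tool of the study, on 9 and 6 mice (-1.03 and -1.02). Its adjusted p stayed at or under 0.0105 in all 17 alternatives. Tomm40l, whose span overlaps that of Apoa2, was at 141 to 169 CPM in Control and 51.7 to 106 CPM in NASH, which is small beside Apoa2. Apom was at 158, 220 and 160 CPM in Control and 130, 104 and 109 CPM in NASH (log2 fold change -0.65 ± 0.16, adjusted p = 0.00988). All NASH mice were below all Control mice. Apoa1, the main structural protein of HDL, was at 12019, 18097 and 11618 CPM in Control and 13200, 9882 and 13203 CPM in NASH, with overlapping groups and a log2 fold change of -0.20 ± 0.23 (adjusted p = 0.542, 95% interval -0.72 to 0.32).

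Among the regulators of triglyceride hydrolysis, the inhibitor Apoc3 and the activator Apoa5 were both lower, and the lipase cofactor Apoc2 was not. Apoa5 was at 1941, 2507 and 2141 CPM in Control and 1390, 1003 and 1459 CPM in NASH, 1.71-fold lower with no overlap (log2 fold change -0.77 ± 0.18, adjusted p = 0.00638 by edgeR). Apoc3 was at 1692, 2027 and 1328 CPM in Control and 1128, 1026 and 1200 CPM in NASH (log2 fold change -0.59 ± 0.21, adjusted p = 0.0483). The highest NASH value lay just under the lowest Control value, and the call was lost when Control 3, Control 4, NASH 5, NASH 19 or NASH 20 was left out (adjusted p = 0.101, 0.123, 0.107, 0.133 and 0.0811). It is therefore the least firm of the 5. Apoc2 was at 154, 195 and 208 CPM in Control and 188, 225 and 257 CPM in NASH, with a log2 fold change of 0.26 ± 0.16 and overlapping groups (adjusted p = 0.228, 95% interval -0.090 to 0.62). The read-through gene Gm44805 was at 101, 132 and 62.3 CPM in Control and 122, 71.9 and 130 CPM in NASH, a large amount beside Apoc2, and with its counts added the log2 fold change of Apoc2 was 0.22 (adjusted p = 0.363).

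The ligand Apoe was at 22578, 29071 and 19085 CPM in Control and 20594, 18173 and 18430 CPM in NASH, with a log2 fold change of -0.31 ± 0.20 (adjusted p = 0.267 by edgeR, 95% interval -0.75 to 0.14). The groups overlapped, and the interval holds a moderate fall as well as a small rise. Macrophages also make Apoe, and 14 of 15 macrophage markers were higher in NASH, whose part in the Apoe level was not tested. Apoa4 had the largest standard error of the 10, at 439, 680 and 810 CPM in Control and 348, 1013 and 828 CPM in NASH. Its log2 fold change of 0.18 ± 0.39 (adjusted p = 0.756) lay between estimates below and above 0 when single mice were left out. Of the 4 genes of the chromosome 9 cluster, Apoa5 and Apoc3 thus passed the test and Apoa1 and Apoa4 did not. In the chromosome 7 cluster, Apoc4, which is no member, fell (log2 fold change -0.81 ± 0.19, adjusted p = 0.00777), while its neighbours Apoc1 (-0.29 ± 0.19, adjusted p = 0.271), Apoc2 and Apoe did not pass. Whether neighbouring genes differ from each other was not tested.

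**Figure D2:**
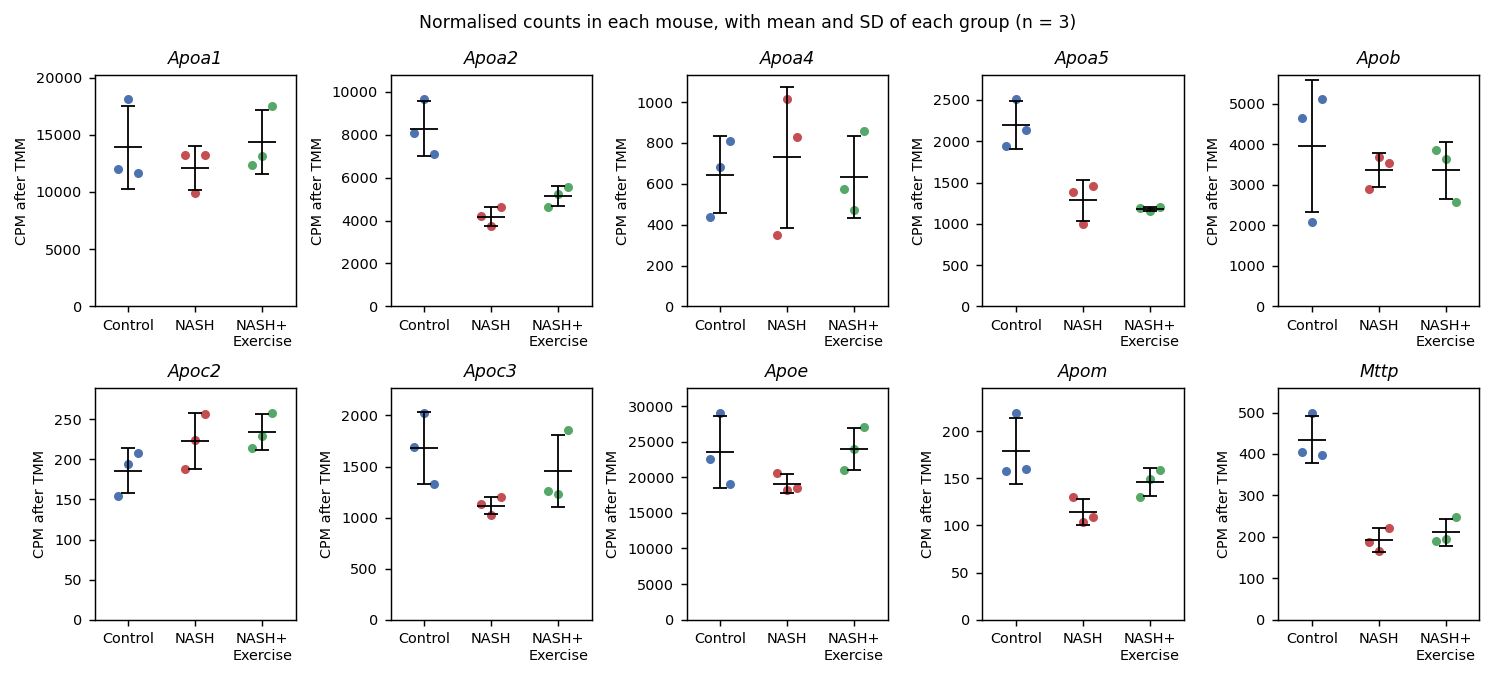
Normalised counts (CPM after TMM, axis from 0) of the 10 genes, 1 point per mouse, with the mean and SD of each group of 3. Mttp, Apoa2 and Apoa5 are lower in all NASH and NASH+Exercise mice than in any Control mouse, while Apoa1, Apoa4, Apob and Apoc2 overlap between Control and NASH.

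The choice of scale moved the values of these genes. With TMM, 1960 genes were lower and 2886 higher in NASH than in Control at an adjusted p under 0.05, whereas scaling by library size alone gave 633 lower and 4489 higher, and limma on log2(TPM + 1) gave 524 lower and 5045 higher. Over all genes the median was 0.013 under TMM, 0.36 under library size and 0.34 under TPM, and the values of the members lay higher with it. Mttp and Apoa2 were lower under every scaling, by 0.83 and 0.63 on the log2 scale under library size and by 0.74 and 0.54 under TPM. Apoa5 was lower under library size (log2 fold change -0.43, adjusted p = 0.0248) and did not pass under TPM (-0.35, adjusted p = 0.0526). Its adjusted p over the 17 alternatives was 5.04e-05 to 0.0526. Apom did not pass under library size or TPM (log2 fold changes -0.29 and -0.20, adjusted p = 0.058 and 0.129, range over alternatives 0.00146 to 0.129), nor did Apoc3 (-0.23 and -0.13, adjusted p = 0.23 and 0.385, range 0.00739 to 0.385). Apoc2 was higher under library size (0.61, adjusted p = 0.0141) and TPM (0.73, adjusted p = 0.00845), with a range of 0.00824 to 0.567 over 18 alternatives. The estimates of Apoa1, Apob and Apoe changed sign under library size (0.16, 0.090 and 0.061) and did not pass there.

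Transcript length moved with the same contrast. Among well expressed genes, the median log2 fold change of NASH against Control was -0.40 for 240 genes with transcripts up to 1000 nt, which hold Apoa2, Apoc2 and Apoc3, and -0.052 for 197 genes over 8000 nt, which hold Apob. It was -0.35 for 819 genes over that and up to 2000 nt, where Apoa1, Apoa4, Apoe and Apom lie, and -0.26 for 1485 genes above this and up to 4000 nt, where Apoa5 and Mttp lie. Set beside the median of their own length class, Mttp, Apoa2 and Apoa5 were still well below it. Apom (-0.65), Apoc3 (-0.59) and also Apob (-0.23), the last of which did not pass the test, were below theirs by less. Apoe (-0.31) and Apoa1 (-0.20) were not below theirs, and Apoa4 (0.18) and Apoc2 (0.26) were above. With the length trend of each library removed, Mttp, Apoa2, Apoa5 and Apom stayed lower (log2 fold changes -1.31, -0.74, -0.81 and -0.50), Apoc3 no longer passed (-0.38, adjusted p = 0.0987) and Apoc2 was higher (0.44, adjusted p = 0.0459).

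**Figure D3:**
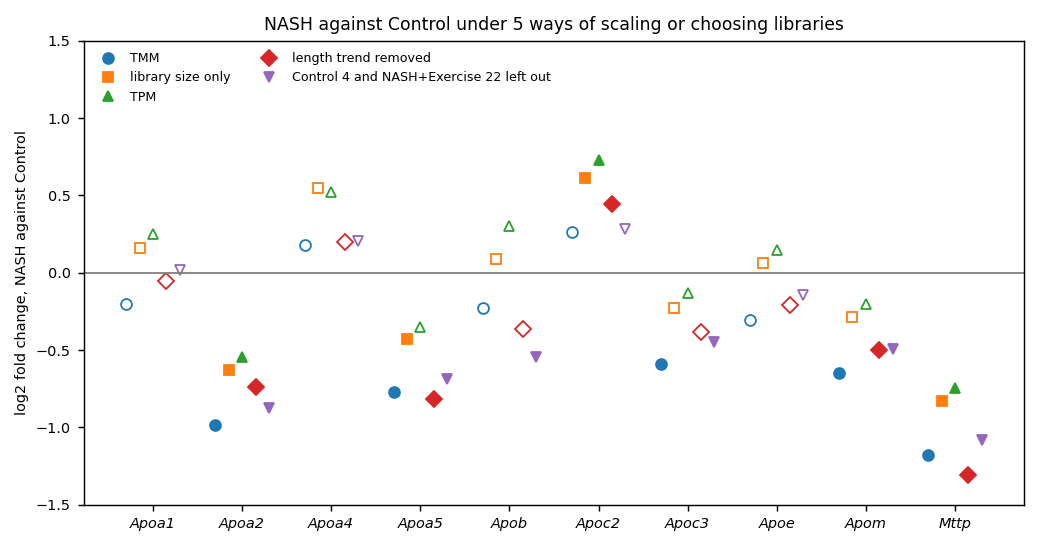
Log2 fold change of NASH against Control for the 10 genes under 5 settings, filled where the adjusted p is under 0.05 and open where it is not. Apoa2 and Mttp are filled and below 0 under all 5 settings, Apoc3 is filled under TMM and with both libraries left out, and Apoc2 is filled and above 0 under library size, TPM and the removed length trend.

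The second comparison, NASH+Exercise against NASH, asks whether 8 weeks of treadmill running during the diet moved the members. None of the 10 passed the test by edgeR. The smallest adjusted p was 0.327, for Apom, and 1 member was under 0.05 without adjustment, as were 2078 of 13619 genes. The background by edgeR was as low, with 0.162% of all genes at an adjusted p under 0.05 (0.0514% lower and 0.11% higher) and 0.14% called as DEGs. DESeq2 and limma on TPM also gave 0 members past an adjusted p of 0.05, with more genes passing. DESeq2 called 174 genes as DEGs on 9 mice and 204 on 6. Limma on log2(TPM + 1) called 103, and at the adjusted p alone 273 genes were lower and 32 higher. The estimates were small, between -0.20 and 0.38 on the log2 scale, and 7 of 10 lay above 0, with a median of 0.19 against -0.033 over all genes. Among well expressed genes the median was 0.21 for transcripts up to 1000 nt, the class of Apoa2, Apoc2 and Apoc3. It was 0.15 for those over that and up to 2000 nt, where Apoa1, Apoa4, Apoe and Apom lie. For transcripts over 8000 nt, the class of Apob, it was -0.040. The median of the 12 hepatocyte markers was 0.26, so a median above that of all genes was not particular to the members. Under library size alone the medians were -0.015 for the members and -0.23 for all genes, so the sign of the members' median depends on the scaling.

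Apom was at 130, 149 and 159 CPM in NASH+Exercise against 130, 104 and 109 CPM in NASH (log2 fold change 0.35 ± 0.16, adjusted p = 0.327), and the groups touched at 130 CPM. Apoc3 was at 1263, 1234 and 1861 CPM in NASH+Exercise, above all NASH mice (0.38 ± 0.21, adjusted p = 0.414), and its high value came from mouse 22. Apoa2, at 4634, 5247 and 5546 CPM (0.30 ± 0.18, adjusted p = 0.448), and Apoe, at 21089, 23920 and 27022 CPM (0.33 ± 0.20, adjusted p = 0.459), were also above all NASH mice. These 3 are the members whose groups did not overlap, which 24.1% of all genes did not do either. Mttp was at 190, 194 and 247 CPM against 188, 165 and 222 CPM in NASH, a log2 fold change of 0.14 ± 0.16 with a 95% interval of -0.23 to 0.50. The upper bound of this interval is below the size of the Mttp difference between NASH and Control, which was -1.18 on the same scale. Apoa5, at 1190, 1155 and 1203 CPM, was within the range of NASH and had a narrow spread (-0.12 ± 0.18, interval -0.51 to 0.27). Apoa1 was at 12342, 13156 and 17524 CPM (0.25 ± 0.23), Apoc2 at 214, 229 and 258 CPM (0.067 ± 0.16), Apoa4 at 572, 471 and 858 CPM (-0.20 ± 0.39) and Apob at 3870, 3636 and 2565 CPM (-0.0072 ± 0.30), and all 4 overlapped NASH. The lowest Apob value was in mouse 22, the NASH+Exercise mouse with low long transcripts. These intervals are not adjusted for the number of genes tested, whereas the calls are. The 95% interval of Apom, 1.76e-04 to 0.71, left out 0, yet its adjusted p was 0.327 by edgeR. With 3 mice per group, an interval clear of 0 was thus not enough to pass. The intervals therefore do not mark the smallest difference that could be detected.

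**Figure D4:**
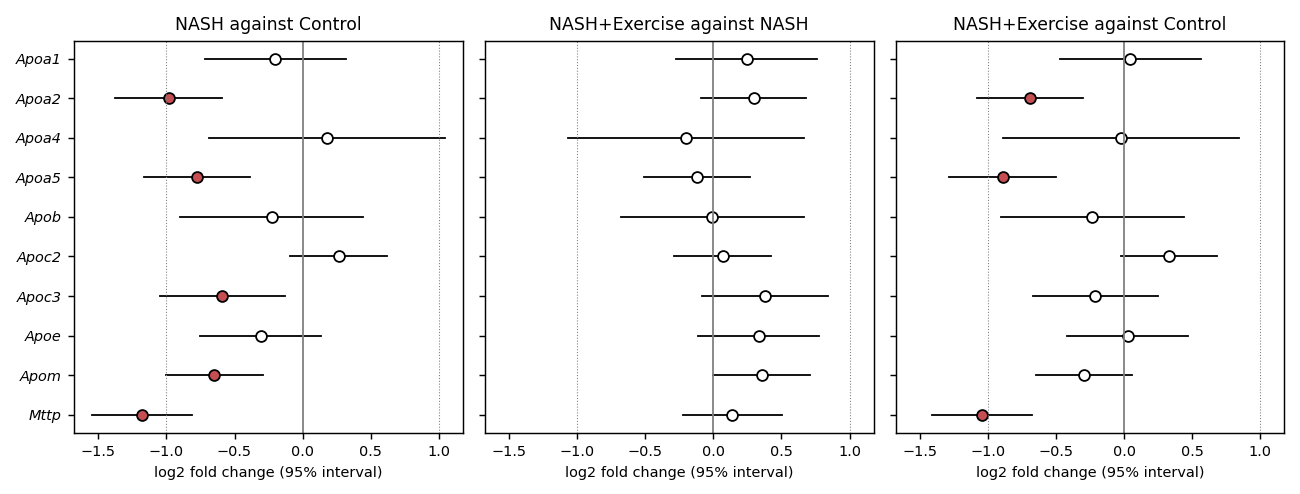
Log2 fold change of the 10 genes with its 95% interval in each of the 3 comparisons (edgeR, 9 mice in 1 fit), filled where the adjusted p is under 0.05, with dotted lines at the fold limit for a DEG. In NASH against Control 5 points are filled, all below 0, in NASH+Exercise against NASH none is, and in NASH+Exercise against Control 3 are (Apoa2, Apoa5 and Mttp).

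The third comparison, NASH+Exercise against Control, shares its Control mice with the first and is no independent repeat of it. Mttp, Apoa5 and Apoa2 were lower than in Control and 0 members were higher, where 25.1% of all genes passed, 9.58% lower and 15.6% higher. Mttp fell 2.06-fold (log2 fold change -1.04 ± 0.17, adjusted p = 0.00116 by edgeR) and was the only member called as a DEG, against 13.5% of all genes. Its fold dropped under the limit for a DEG without Control 4, NASH+Exercise 8 or NASH+Exercise 18 (log2 fold changes -0.91, -0.97 and -0.99), while its adjusted p was at most 0.00743 over 17 alternatives. Apoa5 fell 1.86-fold (-0.89 ± 0.18, adjusted p = 0.00406, range over alternatives 3.43e-07 to 0.0222). Apoa2 fell 1.61-fold (-0.69 ± 0.18, adjusted p = 0.0157), and it did not pass without NASH+Exercise 8 (adjusted p = 0.0666, range 2.10e-04 to 0.0666). Apoc2 was above all Control mice but did not pass (0.33 ± 0.16, adjusted p = 0.163), and with these 3 it makes 4 members without overlap, where 38.6% of all genes had none. Apom (-0.29 ± 0.16, adjusted p = 0.215), Apoc3 (-0.21 ± 0.21, adjusted p = 0.511), Apob (-0.23 ± 0.30), Apoa1 (0.044 ± 0.23), Apoe (0.026 ± 0.20) and Apoa4 (-0.021 ± 0.39) did not pass. Over the 10 members the median was -0.22, against 0.003 over all genes. Class medians of well expressed genes by transcript length ran from -0.21 (up to 1000 nt) to -0.098 (over 8000 nt) in this comparison. The median of the 12 hepatocyte markers was -0.34. The median of the members was thus near that of well expressed genes with short transcripts. Apom and Apoc3 passed in the first comparison and not in this one, and the difference between NASH+Exercise and NASH in these genes did not pass either, as given above.

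Ratios of members within a mouse do not depend on how libraries are scaled to each other. They were taken from TPM and compared by exact two-sided permutation tests, in which 3 mice against 3 cannot give a p under 0.1, and 15 tests gave adjusted p of 0.375 or more. The Apoa1 to Apoa2 ratio was 0.754, 0.951 and 0.827 in Control, 1.60, 1.34 and 1.45 in NASH and 1.35, 1.27 and 1.60 in NASH+Exercise. All 6 mice on the diet were thus above all 3 Control mice, with means of 0.844 ± 0.0996, 1.46 ± 0.130 and 1.41 ± 0.173 (SD, n = 3, exact p = 0.1 against Control in both diet groups, adjusted p = 0.375). The Apoc3 to Apoc2 ratio, of the lipase inhibitor to its cofactor, was 13.6, 12.9 and 7.53 in Control and 7.21, 5.40 and 5.64 in NASH. The groups did not overlap (exact p = 0.1, adjusted p = 0.375), though the ratio of Control 29 lay close to that of NASH 5. In NASH+Exercise it was 6.99, 6.35 and 8.51, which overlapped both other groups. Since part of the Apoc2 reads may be given to Gm44805, the level of this ratio is uncertain. The Apob to Mttp ratio was 3.26, 1.18 and 3.63 in Control, 4.36, 6.35 and 4.52 in NASH and 5.77, 5.30 and 2.94 in NASH+Exercise. NASH was above Control without overlap (exact p = 0.1), and the low values were again those of Control 4 and NASH+Exercise 22. The Apoe to Apoa1 ratio stayed between 1.14 and 1.54 in all 9 mice, and the Apoa4 to Apoa1 ratio between 0.0154 and 0.0599, and both overlapped in all comparisons.

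**Figure D5:**
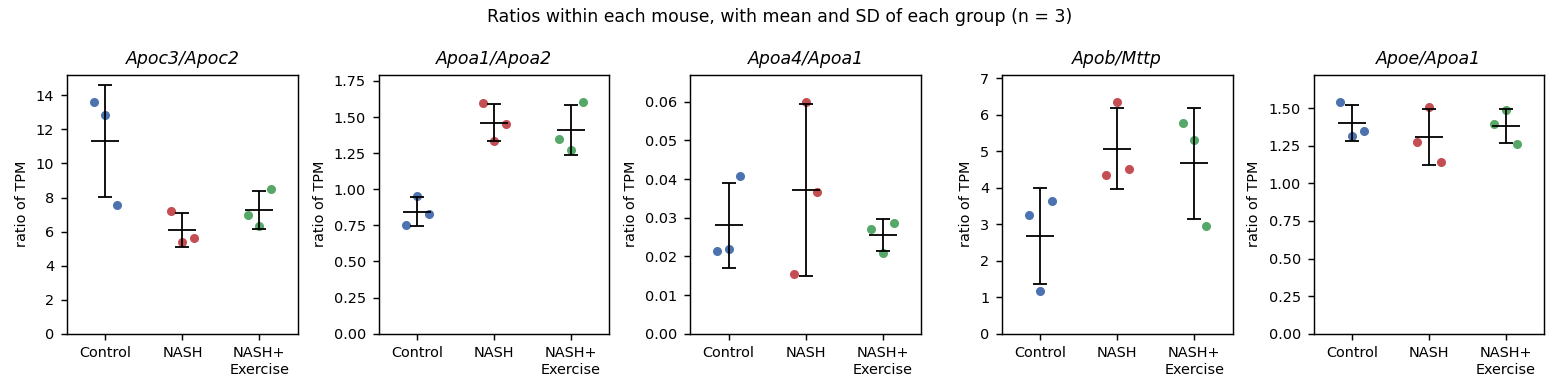
Ratios of TPM within each mouse (axes from 0), 1 point per mouse, with mean and SD of each group of 3. Apoa1 to Apoa2 is higher in all 6 mice on the Ath diet than in any Control mouse, while Apoe to Apoa1 and Apoa4 to Apoa1 overlap in all groups.

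Around the members, 6 lists of lipoprotein genes were read in the same fit. In NASH+Exercise against NASH 0 genes of any list passed, where 0.162% of all genes did. Among all genes 14.4% were lower and 21.2% higher in NASH against Control, and 9.58% and 15.6% in NASH+Exercise against Control. Unless another scale is named, values are under TMM. The median over all genes in NASH against Control was 0.013 under TMM and 0.36 under library size. Class medians of well expressed genes by transcript length ran from -0.40 to -0.052 under TMM. Lipoprotein assembly and secretion had 8 lower and 2 higher of 22 genes in NASH against Control, with a median of -0.28. Sar1b, the small GTPase of the coat that carries these particles out of the endoplasmic reticulum, was at 171 to 221 CPM in Control and 86.8 to 114 CPM in NASH (log2 fold change -1.04 ± 0.16, adjusted p = 5.18e-04 by edgeR). The same coat's Sec23a (-0.76), the editing cofactor A1cf (-0.80) and the triglyceride synthase Dgat1 (-0.88) were lower as well. Apobec1, which edits the Apob transcript, was higher (1.30 ± 0.22, adjusted p = 0.00136), at 9.45 to 17.5 CPM in Control and 33.2 to 37.1 CPM in NASH. Compared with Control, NASH+Exercise had 4 of the list lower and 3 higher.

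Of 7 serum amyloid A and paraoxonase genes, whose proteins ride on HDL, 4 were higher and 1 lower in NASH than in Control, with a median of 1.41. Pon1, an HDL-bound esterase, was at 694 to 803 CPM in Control, 249 to 350 CPM in NASH and 370 to 393 CPM in NASH+Exercise, and fell by 1.34 on the log2 scale in NASH (SE 0.15, adjusted p = 9.12e-05 by edgeR). Saa4 was at 131 to 200, 355 to 501 and 691 to 1197 CPM in the 3 groups, and rose in NASH (1.41 ± 0.23, adjusted p = 0.00101). Its groups did not overlap between NASH and NASH+Exercise, but the difference did not pass (1.17 ± 0.23, adjusted p = 0.102). The acute phase proteins Saa1, Saa2 and Saa3 were higher in both diet groups than in Control (log2 fold changes in NASH 4.66, 5.38 and 3.43), and Saa1 and Saa2 are near-identical copies whose split of reads is uncertain. For NASH+Exercise beside Control, 2 of the 7 were lower and 4 higher.

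Lipases and remodelling proteins had 4 lower and 5 higher of 13 in NASH, with a median of 0.28. Lipoprotein lipase (Lpl) was at 7.34 to 17.5 CPM in Control and 165 to 371 CPM in NASH (4.40 ± 0.43, adjusted p = 6.81e-05 by edgeR), and its inhibitor Angptl4 was lower, at 295 to 472 and 67.1 to 177 CPM (-1.56 ± 0.48, adjusted p = 0.0304). The Angptl4 call held in 11 of 17 alternatives and was lost without Control 3, Control 4, NASH 5 or NASH 19 (adjusted p = 0.067, 0.104, 0.0583 and 0.0891 by edgeR). The cholesterol exporters Abcg1 (3.49) and Abca1 (0.98) and the phospholipid transfer protein Pltp (0.73) were higher, and Lcat (-0.63), which esterifies cholesterol on HDL, hepatic lipase Lipc (-0.53) and endothelial lipase Lipg (-2.51) were lower. Lpl, Abcg1 and Abca1 are also expressed by macrophages, whose markers rose in the same mice, and the part of these cells was not tested. The counts for NASH+Exercise against Control were 2 lower and 4 higher. Of 14 receptor genes, 3 were lower and 4 higher in NASH, among them the HDL receptor Scarb1 (0.67) and Mylip (1.01), a ubiquitin ligase that marks receptors of this family for decay, on the higher side and the remnant receptor Sdc1 (-0.97) on the lower side. The Mylip call was lost without Control 3, Control 4 or NASH 19 (adjusted p = 0.0511, 0.055 and 0.0525 by edgeR). Apobr, a receptor of macrophages, was at 1.0 to 1.79 CPM in Control and 5.24 to 6.67 CPM in NASH (2.22 ± 0.32). Relative to Control, 3 receptors were lower in NASH+Exercise and 3 higher, and Vldlr, at 1.06 to 3.11 CPM in Control and 0.330 to 0.786 CPM in NASH+Exercise, was among the lower ones, though not with limma on log2(TPM + 1) (adjusted p = 0.11).

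Of 12 other apolipoproteins tested of 15 listed, 2 were lower and 5 higher in NASH, with a median of 0.099. Apoc4 and Apoh (-0.63) were the lower ones, and the higher ones were of the apolipoprotein L family, which is induced in inflammation. Apol9a was at 32.0 to 47.6 CPM in Control and 106 to 145 CPM in NASH, but it is a near-identical copy of Apol9b, so their split is uncertain. Apol7c, Apol10b and Apol11b were at no more than 0.322 CPM in any Control mouse, too few counts for a fold, and at 0.504 to 1.70, 2.99 to 5.95 and 0.425 to 1.59 CPM in NASH. NASH+Exercise against Control gave 0 lower and 5 higher. In both counts of 5, Apol7c, Apol10b and Apol11b are included. These genes passed the filter on low counts only through the diet groups, so they could come out only as higher. Of 27 transcription factors that act on apolipoprotein genes, 7 were lower and 2 higher in NASH, with a median of -0.25. Among all genes tested 35.6% passed in that comparison. Creb3l3, which drives Apoa4, Apoa5 and Apoc2 in liver, was at 515 to 623 CPM in Control and 228 to 327 CPM in NASH (-1.01 ± 0.16, adjusted p = 7.47e-04 by edgeR), while Srebf1, the driver of fatty acid synthesis, was at 44.8 to 59.6 and 204 to 215 CPM (1.93 ± 0.19, adjusted p = 3.41e-05). Ppara (-0.90), Nr1h4 (-0.85), Srebf2 (-0.66), Cebpa (-0.46) and Usf2 (-0.40) were also lower, and Nr0b2 (0.56) was higher. For these genes, as for Lcat, Lipc and Apoh, values under other scalings are not given here. Hnf4a, at 850 to 943 CPM in Control and 542 to 732 CPM in NASH, did not pass (-0.45 ± 0.19, adjusted p = 0.0885). Beside Control, NASH+Exercise had 5 lower and 1 higher. What these levels do to the members was not tested.

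The genes most like each member over the 9 mice were found by the root-mean-square (RMS) difference between centred log2 CPM profiles. Apom was closest to the fatty acid transporter Slc27a4 (RMS 0.055), against an RMS of 0.31 of Apom about its own mean. Mttp, with an RMS of 0.55 about its mean, was closest to the gluconeogenic enzyme Fbp1 (RMS 0.071) and Eif1 (RMS 0.072). Apoa2 was closest to Sod1 (RMS 0.048) and Ndufb9 (RMS 0.063), and Apoa5 to Agpat3 (RMS 0.090) and Ilvbl (RMS 0.095). Apob was closest to Cul3 (RMS 0.045) and Stag2 (RMS 0.069). Apoe was nearest to Bscl2 (RMS 0.041) and E130309D02Rik (RMS 0.046), Apoc3 to Naa60 (RMS 0.061) and Selenbp1 (RMS 0.072), and Apoa1 to Sil1 (RMS 0.075) and Slco2b1 (RMS 0.081). The least matched were Apoc2, with Zbed3 (RMS 0.097) and Cdk5rap2 (RMS 0.108), and Apoa4, with Pgam2 (RMS 0.200) and Mars2 (RMS 0.243). No member was among the 2 nearest genes of another, also within the chromosome 9 cluster. All profiles share the same 9 libraries and their scaling, and the nearest of 13619 genes is near by selection.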

How the data were processed

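RNA-seq of liver from 9 mice, 3 per group and 1 library per mouse, was used. Per the processing notes of the submitters, the tools were HISAT2 2.1.0, Bowtie2 2.2.5 and RSEM 1.2.8 on GRCm38.p6. The authors deposited, by gene and mouse, expected counts, which are not normalised (29.0 to 32.8% were not whole and all were rounded here), and TPM values, scaled by transcript length to the same total per library. Deposited FPKM values were not used. Of 285536 values present in more than 1 deposited file, 0 differed. Symbols were matched for 17728 of 17846 identifiers through RefSeq and for 13 through GENCODE, and 105 had none.

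Main tests used edgeR 4.0.16 in R 4.3.3 with filterByExpr (at least 10 counts, total 15), TMM, a robust quasi-likelihood fit of all 9 mice by group and Benjamini-Hochberg adjustment over 13619 genes, and limma 3.58.1 and DESeq2 1.42.0 served as alternatives. The limits for a call were 0.05 for the adjusted p and 1 for the absolute log2 fold change. Verbs such as fell and rose mark an adjusted p under 0.05. Intervals are 95%. Ratios were tested with scipy 1.17.1 by exact permutation. The fit was tested on simulated counts with few changed genes, rises and falls equally likely and no length trend. That test does not bear on the effects of scaling or transcript length. The 10 members, 6 gene lists, 10 marker lists and the promoter patterns were chosen with earlier results of these data known. Text names every member, genes of the lists that were called, up to 5 per list and comparison by fold, further list genes past the adjusted p chosen after their values were seen, and the 2 nearest profiles of each member. Some genes are not reported here. Alternatives were library size, relative log expression and upper-quartile scaling, no filter, fits of 6 mice, DESeq2, limma on log2(TPM + 1) and log2(TPM + 0.1), glmTreat at a log2 fold change of 1 and leaving out each mouse. Removing the length trend, leaving out Control 4 with NASH+Exercise 22 and adding Gm44805 to Apoc2 were chosen after seeing the data. Length is that of the longest protein-coding GENCODE transcript, and well expressed means a mean log2 CPM above 5. The labels do not name separate cages or batches, so p-values measure the spread between these mice.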

Additional observations from a re-analysis of the deposited data

How the results depend on the processing

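Mttp and Apoa2 were lower in NASH than in Control in all 17 alternatives, and Mttp and Apoa5 were lower in NASH+Exercise than in Control in all 17. In NASH+Exercise against NASH 0 members were called in any alternative. In NASH against Control, 1 member was called as a DEG, 2 with relative log expression factors, without the filter and with DESeq2 on 9 or 6 mice, and 0 with library size, with limma on TPM at either pseudocount and with glmTreat at a log2 fold change of 1. It was 1 to 2 when 1 mouse was left out, and 5 at an adjusted p alone, all lower, which became 3 with limma on TPM, of which Mttp and Apoa2 were lower and Apoc2 higher (4 to 5 leaving out 1 mouse). In NASH+Exercise against Control, 1 was called, 3 at an adjusted p alone (2 to 3 leaving out 1 mouse), and 0 with library size, upper-quartile factors, limma on TPM and glmTreat, and 0 to 1 leaving out 1 mouse.

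Of all genes, 2494, 19 and 1836 were called in the 3 comparisons (NASH against Control, NASH+Exercise against NASH, NASH+Exercise against Control). A glmTreat test gave 1309, 0 and 773, and adjusted p alone gave 4846, 22 and 3423. Leaving out 1 mouse gave 2152 to 2580, 0 to 34 and 1557 to 1826. The 0 came without NASH 20 or NASH+Exercise 18, 1 without NASH 5, 2 without NASH+Exercise 22, 5 without NASH 19 and 34 without NASH+Exercise 8. For NASH+Exercise against NASH, DESeq2 gave 174 on 9 mice and 204 on 6, limma on log2(TPM + 1) 103, and 8 were called without Control 4 and NASH+Exercise 22. Limma on log2(TPM + 1) gave 1068 for NASH+Exercise against Control. The members held 4.87, 4.81 and 4.98% of estimated counts in Control, NASH and NASH+Exercise in place of their shares of TPM. The cause of these changes was not tested.

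Signs turned in members that had not passed. In NASH against Control, Apoa1, Apob and Apoe became 0.16, 0.090 and 0.061 with library size and 0.25, 0.30 and 0.15 with limma on TPM at either pseudocount, and Apoa1 was 0.017 without Control 4 and NASH+Exercise 22. For NASH+Exercise against NASH, limma on TPM gave -0.060 for Apoa1, -0.0032 for Apoa2, -0.21 for Apoc2 and -0.16 for Mttp. Library size gave -0.14 for Apoc2 and -0.068 for Mttp. Apoc2 was -0.062 without the length trend and -0.029 with Gm44805 added. Apob was 0.0020 with relative log expression factors, 0.013 without the filter, 0.0092 and 0.039 with DESeq2 on 9 and 6 mice, 0.024 with edgeR on 6 mice, 0.11 without the length trend and 0.18 without both libraries. Against Control, NASH+Exercise gave Apoa4 at 0.10 with library size, 0.035 with upper-quartile factors, 0.014 with edgeR on 6 mice and 0.11 with limma on TPM, and Apoe at -0.00093 with DESeq2 on 6 mice.

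Leaving out 1 mouse, the log2 fold changes in NASH against Control ran from -0.36 to 0.017 for Apoa1 and -0.17 to 0.51 for Apoa4. They ran -0.54 to 0.14 for Apoa4, -0.12 to 0.16 for Apob and -0.040 to 0.18 for Apoc2 for NASH+Exercise against NASH. They ran -0.13 to 0.30 for Apoa1, -0.30 to 0.15 for Apoa4 and -0.13 to 0.23 for Apoe for NASH+Exercise against Control. Log2 ratios ran, in the same order of comparisons, -1.13 to -0.71, 0.14 to 0.39 and -0.87 to -0.45 for Apoc3 to Apoc2, 0.72 to 0.88, -0.15 to 0.014 and 0.64 to 0.83 for Apoa1 to Apoa2, -0.17 to 0.81, -0.89 to 0.092 and -0.24 to 0.23 for Apoa4 to Apoa1, 0.54 to 1.35, -0.34 to 0.14 and 0.38 to 1.197 for Apob to Mttp, and -0.21 to -0.0093, -0.0083 to 0.19 and -0.073 to 0.052 for Apoe to Apoa1. No paired analysis was possible because no mouse number occurs in more than 1 group. The lowest estimated count of a member was 2569, so counting error is small for these genes.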
